A study of Mus musculus with 6 samples.

Results

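The collagen and laminin genes were followed across 6 single-cell RNA libraries of mouse embryonic stem cells (ESC) and their differentiated progeny. The set was defined by symbol, as every gene called Col, a number, the letter a and a number, or Lama, Lamb or Lamc and a digit, which gave 55 of the 31053 genes listed. It held 11 fibrillar collagens, 8 basement membrane collagens, 11 laminin chains and 25 other collagens. The study compared parental ESC with ESC labelled Oct1_cKO, written cKO here, a conditional knockout of the transcription factor Oct1 (gene Pou2f1). By its title the study asks how Oct1 acts with Smad factors when cells enter the mesodermal lineage. Each genotype was profiled as undifferentiated ESC and at day 3 and day 6 of a mesoderm protocol, with 1 library per group. In that protocol cells sat on 0.1% gelatin, first for 2 days in N2B27 medium with Bmp4 and then for 4 days in a DMEM-based medium with Rspo3 and the BMP receptor inhibitor LDN-193189. The labels give the same steps for both genotypes. The labels do not say which part of Pou2f1 was deleted, how many clones were used or when deletion was induced.

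Collagens are built from chains wound into a triple helix. The fibrillar collagens, led by type I with its Col1a1 and Col1a2 chains, form the tension-bearing fibres of connective tissue and are made mostly by fibroblasts and other mesenchymal cells. Type IV collagen and the laminins assemble instead into the sheet-like basement membranes under epithelia and around the early embryo. Each laminin holds an alpha, a beta and a gamma chain, and laminins bind integrins and dystroglycan on the cell surface.

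Gene positions are those of GRCm38.p6 (mm10). Levels are given as CPM, the UMIs (unique molecular identifiers) of a gene per 1000000 UMIs of the library. The libraries were made with a 5′ kit, so each UMI counts 1 tag at the 5′ end of an RNA molecule, and levels can be set side by side between genes without a length term. Ratios are log2 of cKO over parental, or of the later over the earlier stage, with exact binomial 95% intervals. With 1 library per group there is no replicate spread and no test: all intervals cover counting error only, and each ratio describes a pair of libraries. A gene was compared when it reached 5 CPM in the higher of the pair, and it was counted as different at a ratio of at least 2-fold. In sums over a library, fewer cells of a type and less RNA per cell cannot be told apart.

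After filtering, 7096 of 11046 barcodes were kept, 530 to 1650 per library, and the libraries held 38935937 to 84128627 UMIs. Median depth was 30925 to 82544 UMIs per cell, lowest at day 6. Pairs of libraries shared 0 to 2 barcodes. Pou2f1 tags measured 30.1 and 21.5 CPM in parental and cKO ESC, 28.3 and 12.6 CPM at day 3, and 30.9 and 16.0 CPM at day 6, and a tag outside the deleted part would be counted either way. All 9 naive pluripotency markers passed 5 CPM in parental ESC and 8 of 9 did in cKO ESC. At day 6, 4 of 9 somite markers passed 5 CPM in parental and 2 of 9 in cKO, where Nkx3-2 was at 0, and the presomitic marker Msgn1 was at 0 in parental. The ESC libraries carry another title prefix than those of days 3 and 6, so stage and prefix cannot be told apart from ESC to day 3.

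All 55 genes had UMIs in at least 1 library. Of these, 22 reached 5 CPM somewhere: 7 fibrillar collagens, 4 basement membrane collagens, 7 laminins and 4 other collagens. The other 33 stayed below 5 CPM in all 6 libraries, the highest of them at 4.63 CPM. The 3 families had different time courses. Summed over its 11 genes, the fibrillar family measured 163.6 and 18.1 CPM in parental and cKO ESC, 16.4 and 15.8 CPM at day 3, and 225 and 185 CPM at day 6. The 8 basement membrane collagens summed to 115 and 101 CPM in ESC, 73.2 and 80.5 CPM at day 3, and 236 and 427 CPM at day 6. The 11 laminins summed to 145 and 177 CPM, then 86.7 and 82.2 CPM, then 127 and 248 CPM. Fibrillar sums were thus low in 3 of the 6 libraries, whereas the sums of the other 2 families stayed above 70 CPM in all 6.

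**Figure D1:**
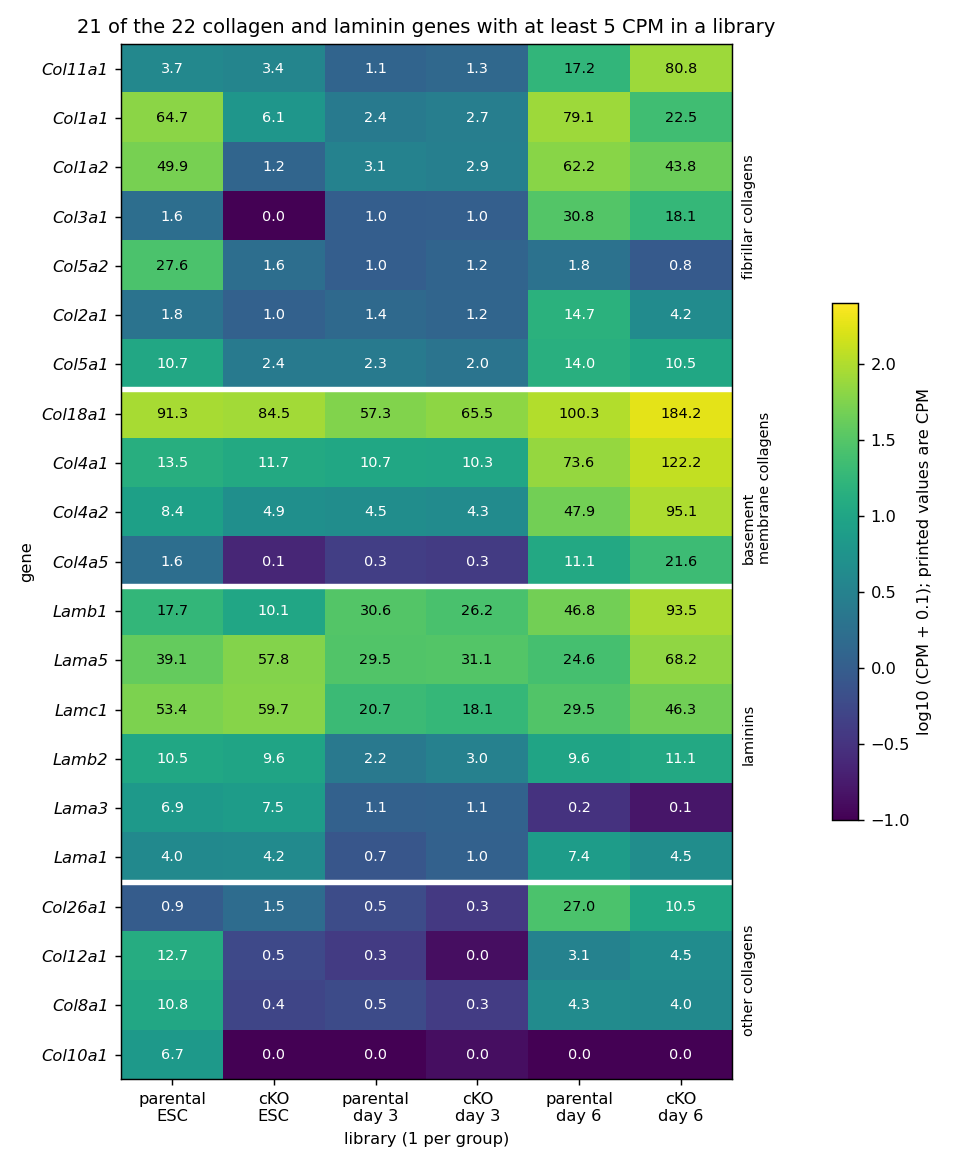
Level of 21 of the 22 collagen and laminin genes with at least 5 CPM in a library (rows, grouped by family) in the 6 libraries (columns). Printed values are CPM and colour is log10 of CPM plus 0.1, and Col18a1 is high throughout, from 57.3 to 184 CPM, and the type I chains are high in parental ESC and at day 6.

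Fibrillar collagens separated parental ESC from every other library before day 6. Col1a1, which encodes the α1 chain of type I collagen (ENSMUSG00000001506, chr11:94936224-94953042, plus strand), measured 64.7 CPM in parental ESC and 6.06 CPM in cKO ESC, 2.42 and 2.71 CPM at day 3, and 79.1 and 22.5 CPM at day 6. Its partner Col1a2, the α2 chain (ENSMUSG00000029661, chr6:4504814-4541544, plus strand), measured 49.9 CPM in parental ESC and 1.18 CPM in cKO ESC, 3.1 and 2.86 CPM at day 3, and 62.2 and 43.8 CPM at day 6. Both chains were high in parental ESC and in both day 6 libraries and low elsewhere. In ESC the ratio of cKO over parental was −3.42 (−3.61 to −3.23) for Col1a1 and −5.40 (−5.85 to −4.98) for Col1a2. Col5a2, a chain of type V collagen, which copolymerises with type I and sets fibril width, measured 27.6 CPM in parental ESC and 1.59 CPM in cKO ESC, 0.951 and 1.15 CPM at day 3, and 1.79 and 0.805 CPM at day 6, an ESC ratio of −4.11 (−4.5 to −3.75). Col5a1, its partner chain, measured 10.7 CPM in parental ESC and 2.41 CPM in cKO ESC, 2.33 and 1.96 CPM at day 3, and 14.0 and 10.5 CPM at day 6, an ESC ratio of −2.14 (−2.47 to −1.83). Thus all 4 fibrillar collagens compared in ESC were lower in cKO, with a median ratio of −3.77 against −0.01 over all 9224 genes compared. Across all families, 7 of 16 members compared in ESC were lower and 1 was higher. Among all genes 4.05% were different in that comparison, 2.66% lower and 1.40% higher.

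In parental ESC these transcripts sat in a small group of cells. Cells of both genotypes were clustered with the collagens, the laminins and the 4 lists of related genes read below left out. Other matrix genes, such as Mgp, Thbs1 and Bgn, were not left out. In ESC 1 cluster was fibroblast-like by its leading genes, among them Mgp, Thbs1, Acta2, S100a4 and Bgn. Col1a1 and Col1a2 were also among its leading genes. It held 124 of 1396 parental cells (8.88%) and 3 of 530 cKO cells (0.566%). The 124 parental cells held 97.6% (97.2 to 98.0) of all Col1a1 UMIs of their library, 98.7% (98.3 to 99.0) of Col1a2 and 97.7% (96.9 to 98.3) of Col5a2. Over the whole fibrillar family their share was 93.9%, against 15.8% of basement membrane collagen UMIs and 10.2% of laminin UMIs, with 7.45% of all UMIs. In the same cells Col1a1 reached 847 CPM. The 3 cKO cells held 231 of the 236 Col1a1 UMIs of cKO ESC. In ESC the sum of the fibroblast marker list was also lower in cKO. Its 14 markers summed to 1023 CPM in parental ESC with 9 above 5 CPM, and to 34.8 CPM in cKO ESC with 1 above 5 CPM and Lum at 0. Mgp alone held 502 and 12.8 CPM. Pdgfrb (3.70 and 3.80 CPM) and Dcn (0.385 and 0.925 CPM) were not lower in cKO.

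Without the fibroblast-like cells, Col1a1 measured 1.66 CPM in parental ESC and 0.129 CPM in cKO ESC, Col1a2 0.694 and 0.0773 CPM, Col5a2 0.694 and 0.0258 CPM, and Col5a1 1.32 and 1.44 CPM. No fibrillar collagen then reached 5 CPM in either library, so none was compared. Of the 8 members still compared, 2 were higher in cKO and 0 lower, where 2.38% of all genes were different, 1.68% higher and 0.701% lower. With those cells left out the fibrillar genes were below the 5 CPM minimum, so their lower calls in ESC ended. The log2 ratios themselves were −3.69 (−5.34 to −2.43) for Col1a1, −3.17 (−5.49 to −1.54) for Col1a2 and −4.75 (−10.1 to −2.21) for Col5a2. They rested on 5, 3 and 1 UMIs in cKO. The ratio of Col5a1 was 0.13 (−0.37 to 0.62), where it was −2.14 over all cells.

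**Figure D2:**
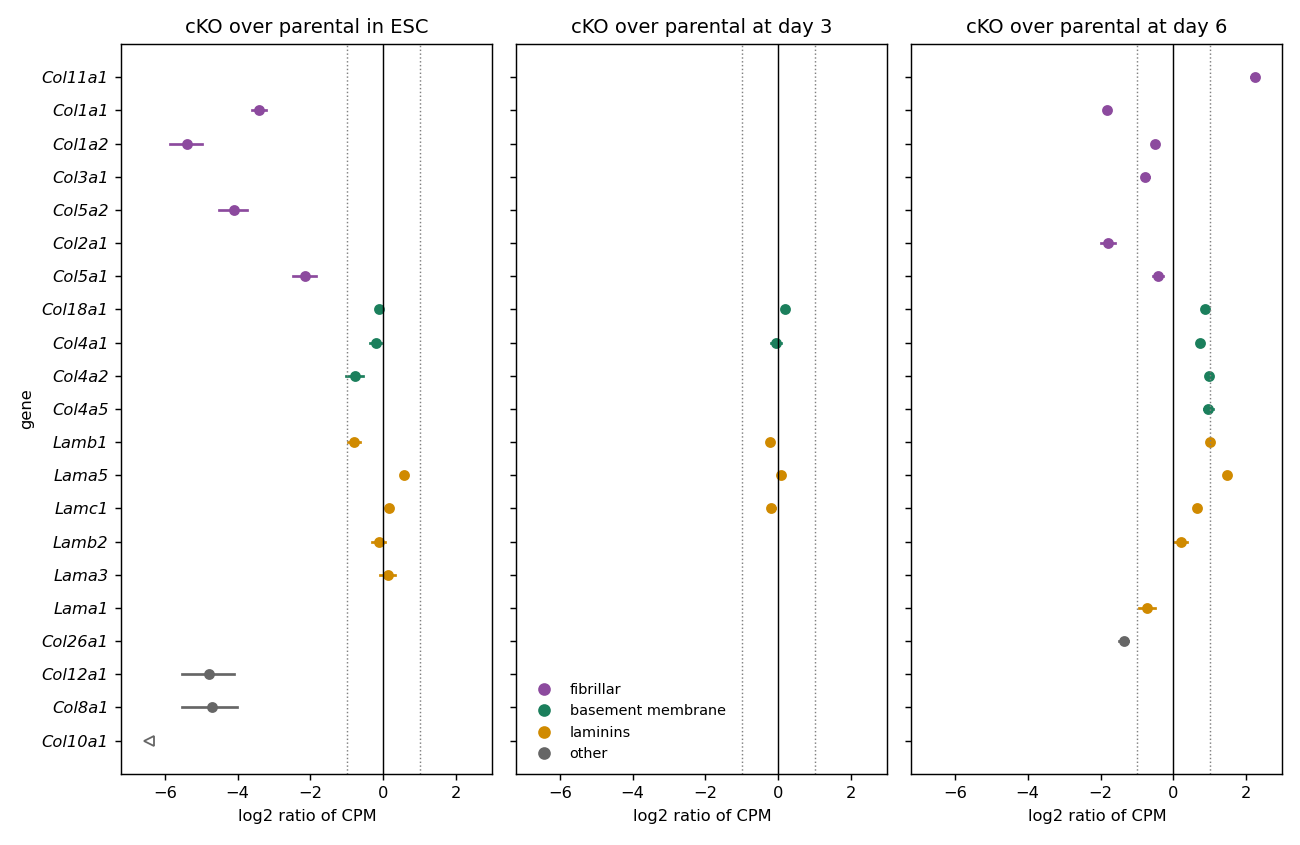
Log2 ratio of CPM of cKO over parental in ESC, at day 3 and at day 6 for the plotted members that reached 5 CPM in either library. Bars are exact 95% intervals of counting error, dotted lines mark 2-fold and the open triangle is the upper bound of Col10a1, set to the floor of 3 counts in cKO; in ESC the fibrillar genes lie far to the left, at day 3 all points lie near 0, and at day 6 the basement membrane collagens lie to the right.

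At day 3 all 11 fibrillar collagens were below 5 CPM in both genotypes, with 3.70 CPM as the highest value. Fibroblast-like cells were few, 4 in parental and 5 in cKO, and held 37.3% and 48.9% of the fibrillar UMIs of their libraries. From ESC to day 3 the parental Col1a1 ratio was −4.74 (−4.96 to −4.53) and the Col1a2 ratio −4.01 (−4.20 to −3.82). Without fibroblast-like cells the Col1a2 ratio was 0.80 and that of Col5a1 0.54, from 0.694 to 1.21 CPM and from 1.32 to 1.92 CPM, whereas Col1a1 kept a ratio of −1.97. The 124 parental ESC cells thus held most of the type I transcripts that set these ratios.

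Fibrillar collagens were high again at day 6 in both genotypes. The day 6 over day 3 ratio of Col1a1 was 5.03 (4.82 to 5.25) in parental and 3.05 (2.85 to 3.26) in cKO, and that of Col1a2 4.33 (4.14 to 4.52) and 3.93 (3.75 to 4.13). Col3a1, the type III collagen of soft and distensible tissue (ENSMUSG00000026043, chr1:45311538-45349706, plus strand), measured 1.58 CPM in parental ESC and 0 CPM in cKO ESC, 0.951 and 0.963 CPM at day 3, and 30.8 and 18.1 CPM at day 6. Its highest level before day 6 was that of parental ESC. Col11a1, an α chain of the cartilage-type fibrils of type XI, measured 3.71 CPM in parental ESC and 3.44 CPM in cKO ESC, 1.14 and 1.32 CPM at day 3, and 17.2 and 80.8 CPM at day 6, and was the only one of the 7 fibrillar genes above 5 CPM with its highest level in cKO. Col2a1, the main collagen of cartilage, which is also made by notochord and neural tube, measured 1.85 CPM in parental ESC and 1.03 CPM in cKO ESC, 1.36 and 1.2 CPM at day 3, and 14.7 and 4.25 CPM at day 6. The other fibrillar collagens, Col5a3, Col11a2, Col24a1 and Col27a1, stayed below 5 CPM.

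At day 6 the genotypes differed gene by gene within this family. Of 6 fibrillar collagens compared, 1 was higher in cKO and 2 were lower, with a median ratio of −0.64 against −0.05 for all genes. Col1a1 had a ratio of −1.81 (−1.90 to −1.73) and Col2a1 of −1.79 (−1.98 to −1.60). Col11a1 went the other way, at 2.24 (2.15 to 2.33). Col1a2 at −0.51 (−0.57 to −0.44), Col3a1 at −0.77 (−0.87 to −0.67) and Col5a1 at −0.43 (−0.57 to −0.28) were lower by less than 2-fold. Over all families, 3 of 17 members compared were higher and 3 lower at day 6, where 12.4% of all genes were different, 5.63% higher and 6.76% lower. With library scaling by TMM or by median-of-ratios size factors 6 members were higher and 3 lower, so that the share of higher among the different members went from 50% to 66.7%.

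Marker sums differed between genotypes at day 6 in both directions. The 8 markers of smooth muscle or cardiac mesenchyme summed to 1975 and 1013 CPM in parental and cKO. The 7 neural progenitor markers summed to 1155 and 80.5 CPM, of which Crabp1 alone held 739 and 24.8 CPM. Somite markers (175 and 109 CPM) and those of endothelium or blood (235 and 3.87 CPM) were also lower in cKO. In the latter list Hba-x alone held 177 and 0 CPM, and the other 8 markers summed to 57.4 and 3.87 CPM. The cluster led by Hba-x and Hbb-y had 8 parental and 0 cKO cells. Primitive streak markers (25.5 and 87.3 CPM) and epithelial markers (2127 and 5870 CPM) were higher. The 14 fibroblast markers summed to 907 CPM in parental and 343 CPM in cKO, 4 of 14 being above 5 CPM in each and none at 0. That difference came from Acta2, smooth muscle actin, which is on both mesenchymal lists, at 866 and 286 CPM. Without it the 13 remaining fibroblast markers summed to 41.7 and 56.5 CPM, so their sum was higher in cKO. Most of that gap was Dcn, at 2.14 CPM in parental and 16.7 CPM in cKO. Single markers went both ways. Bgn was higher in cKO, at 12.6 and 17.1 CPM, whereas Pdgfrb (10.4 and 6.84 CPM) and Twist2 (5.23 and 1.82 CPM) were lower. The part of these markers in the library ratios was not tested as such. Shares of cells in the day 6 clusters differed as well, so the genotypes were also set side by side within clusters.

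Within classes of cells the difference in Col1a1 remained and that in several other genes did not. In somite-like cells (220 parental, 210 cKO), whose cluster was led by Ctla2a, Meox1 and Tcf15, Col1a1 measured 141 and 40.8 CPM, a ratio of −1.79 (−1.94 to −1.64). In epithelium-like cells (206 parental, 676 cKO) its levels were 35.4 and 13.7 CPM, a ratio of −1.36 (−1.53 to −1.19). The epithelium-like class joined 2 clusters that the genotypes filled unequally: 145 parental and 289 cKO cells in that led by Tmem54 and Cited1, and 61 and 387 in that led by Cxcl14 and Serpinb9b. Col1a1 was lower in cKO in both, at 34.3 and 10.5 CPM in the first and 38.5 and 16.6 CPM in the second. Without all epithelium-like cells its ratio was −1.16 (−1.26 to −1.06). An unnamed cluster led by Crct1, Actc1 and Nppa (80 parental, 29 cKO cells) had the highest level of all clusters, 547 and 244 CPM. Col1a1 lies on chromosome 11, where the median ratio of 837 genes was −0.32 at day 6, and relative to that median its ratio was −1.49.

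Col1a2 followed Col1a1 less closely. It measured 34.7 and 35.5 CPM in parental and cKO epithelium-like cells, a ratio of 0.03 (−0.12 to 0.18), and 129.8 and 83.4 CPM in somite-like cells, a ratio of −0.64 (−0.75 to −0.52). The number of Col1a1 UMIs per Col1a2 UMI was 1.27 (1.22 to 1.32) in parental and 0.513 (0.482 to 0.546) in cKO at day 6. In the type I protein α1 chains outnumber α2 chains. At day 3, the ratios were 0.780 (0.641 to 0.948) and 0.946 (0.786 to 1.14), whose intervals overlapped. Within day 6 classes the chain ratio was 1.02 (0.898 to 1.16) in parental and 0.387 (0.353 to 0.425) in cKO epithelium-like cells, and 1.08 (1.01 to 1.16) and 0.489 (0.437 to 0.546) in somite-like cells. In the cluster led by Crct1 it was 2.00 (1.87 to 2.14) and 1.30 (1.11 to 1.53). The intervals of parental and cKO were apart in these 3 groups of cells. The median of chromosome 6, where Col1a2 lies, was −0.22, and that of chromosome 11, where Col1a1 lies, −0.32. The part of the chromosomes in the chain ratio was not tested. In cKO ESC the ratio was 5.13 (3.73 to 7.20) against 1.29 (1.24 to 1.35) in parental ESC, but the cKO value rested on 3 fibroblast-like cells.

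**Figure D3:**
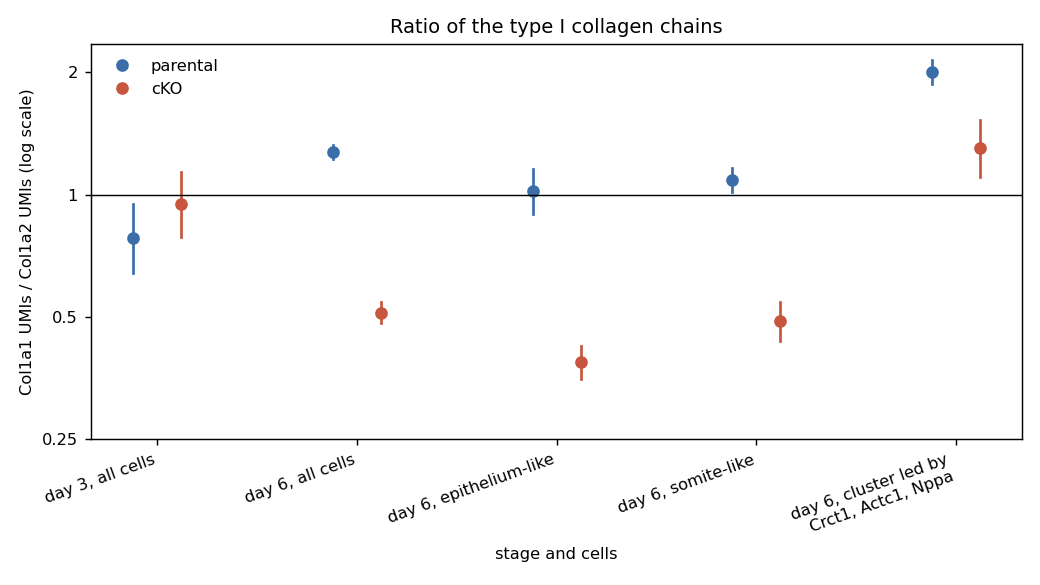
Col1a1 UMIs per Col1a2 UMI (log scale) in parental and cKO cells at day 3 and day 6, over all cells and within 3 groups of day 6 cells. Bars are exact 95% intervals of counting error, and each day 6 group has a lower ratio in cKO, for example 0.387 against 1.02 in epithelium-like cells.

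Col3a1 and Col11a1 were distributed differently again. Col3a1 measured 100.5 and 57.9 CPM in parental and cKO somite-like cells, a ratio of −0.80 (−0.93 to −0.66), and below 5 CPM in epithelium-like cells of both. In the cluster led by Crct1 its level was 128 CPM in parental and 230.1 CPM in cKO, so its direction was not the same in every cluster. Without epithelium-like cells Col3a1 measured 37.9 and 47.5 CPM, a ratio of 0.32 (0.22 to 0.43), opposite in sign to that over all cells. Col11a1 measured 39.4 and 107 CPM in epithelium-like cells, a ratio of 1.45 (1.32 to 1.57), and 16.1 and 31.3 CPM in somite-like cells, a ratio of 0.96 (0.71 to 1.22). Its ratio was higher in cKO within both classes and smaller there than the 2.24 over all cells. Col2a1 was highest in the parental neural-progenitor-like clusters, at 26.8 CPM in that led by Fabp7 and 30.4 CPM in that led by Hoxb9, and in the unnamed cluster led by Pomc, Car3 and T, at 51.0 CPM. The 2 neural clusters held 493 parental and 7 cKO cells.

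The DNA upstream of Col3a1 is shown because it holds the octamer ATGCAAAT, the sequence that Oct1 and related POU factors recognise. The 250 bases before its annotated start, from RefSeq on GRCm38.p6, chr1:45311288-45311537, plus strand, are given with the octamer in capitals.
Col3a1: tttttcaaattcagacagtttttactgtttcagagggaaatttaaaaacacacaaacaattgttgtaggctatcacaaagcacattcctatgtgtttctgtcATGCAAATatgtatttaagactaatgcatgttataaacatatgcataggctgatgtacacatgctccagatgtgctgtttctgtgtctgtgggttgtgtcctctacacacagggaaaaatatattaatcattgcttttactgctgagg
Of 44 windows of 40 matched members, each from 250 bases before to 50 after a start, 2 held ATGCAAAT or its reverse complement ATTTGCAT (4.55%), those of Col3a1 and Col25a1. Of all 32851 such windows 570 did (1.74%). Both strands were searched for the exact letters. No exact match lies in the window of Col1a1.

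Basement membrane collagens had summed levels between 73.2 and 115 CPM before day 6 and were higher in cKO at day 6. Col18a1, whose product carries heparan sulfate chains and releases endostatin (ENSMUSG00000001435, chr10:77052178-77166548, minus strand), measured 91.3 CPM in parental ESC and 84.5 CPM in cKO ESC, 57.3 and 65.5 CPM at day 3, and 100.3 and 184 CPM at day 6. It had the highest level of all 55 genes in all 6 libraries. Col4a1, a chain of type IV collagen, the network former of basement membranes, measured 13.5 CPM in parental ESC and 11.7 CPM in cKO ESC, 10.7 and 10.3 CPM at day 3, and 73.6 and 122 CPM at day 6. Its partner Col4a2 measured 8.37 CPM in parental ESC and 4.85 CPM in cKO ESC, 4.49 and 4.30 CPM at day 3, and 47.9 and 95.1 CPM at day 6. Col4a5, a type IV chain found in more specialised basement membranes, measured 1.59 CPM in parental ESC and 0.128 CPM in cKO ESC, 0.321 and 0.285 CPM at day 3, and 11.1 and 21.6 CPM at day 6. All 4 genes were highest in cKO at day 6 and next highest in parental at day 6. The other 4 genes of the family, Col4a3, Col4a4, Col4a6 and Col15a1, stayed below 5 CPM, with 3.73 CPM as the highest value.

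The paired type IV genes start back to back. Col4a1 (ENSMUSG00000031502, chr8:11198423-11312826, minus strand) and Col4a2 (ENSMUSG00000031503, chr8:11312805-11449287, plus strand) have annotated starts 21 bases apart on opposite strands and overlap there. This stretch, chr8:11312777-11312854 of GRCm38.p6, plus strand, from RefSeq, is shown because both genes start within it and both were highest at day 6. The capitals are the 22 bases from the start of Col4a2 to that of Col4a1.
Col4a1 and Col4a2: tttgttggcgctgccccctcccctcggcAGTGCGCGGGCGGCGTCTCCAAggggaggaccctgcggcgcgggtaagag
Whether reads in the overlap were assigned by strand is not given in the sources used here. The number of Col4a1 UMIs per Col4a2 UMI was 1.62 (1.46 to 1.78) in parental and 2.41 (2.03 to 2.87) in cKO ESC. At day 3 it was 2.38 (2.09 to 2.70) and 2.39 (2.11 to 2.71), and at day 6 1.54 (1.47 to 1.61) and 1.28 (1.24 to 1.33). Over 6 libraries the ratio of these 2 chains ranged from 1.28 to 2.41 and that of the type I chains from 0.513 to 5.13. The 5.13 was that of cKO ESC and rested on 3 fibroblast-like cells. Without cKO ESC the ranges were 1.28 to 2.39 and 0.513 to 1.29. The other paired type IV genes, Col4a3 with Col4a4 and Col4a5 with Col4a6, have starts 72 and 1309 bases apart.

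In ESC none of the 3 basement membrane collagens compared differed by 2-fold, with a median ratio of −0.21. Col4a1 had a ratio of −0.21 (−0.37 to −0.05) and Col18a1 of −0.11 (−0.17 to −0.05). Without fibroblast-like cells, however, Col4a1 levels were 5.70 and 11.5 CPM in parental and cKO, a ratio of 1.01 (0.81 to 1.21). The fibroblast-like parental cells had 111 CPM of Col4a1 and 28.4 CPM of Col18a1, so they were high in the first gene only. At day 3 the ratios were −0.05 (−0.19 to 0.09) and 0.19 (0.14 to 0.25). None of 5 members compared at day 3, in any family, differed by 2-fold, where 0.852% of all genes did, 0.258% higher and 0.594% lower.

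From day 3 to day 6, Col4a1 had a ratio of 2.79 (2.68 to 2.90) in parental and 3.57 (3.47 to 3.68) in cKO. Col4a2 had 3.42 (3.26 to 3.58) and 4.47 (4.31 to 4.62), and Col4a5, from below 1 CPM, 5.11 (4.54 to 5.75) and 6.24 (5.66 to 6.89). Col18a1 had 0.81 (0.75 to 0.86) and 1.49 (1.45 to 1.54), which passed 2-fold in cKO. Over all families, 13 of 17 members compared were higher at day 6 than at day 3 in parental and 0 were lower, where 23.7% of all genes were different, 18.3% higher and 5.41% lower. In cKO 15 of 15 were higher, where 30.8% of all genes were different, 23.0% higher and 7.72% lower.

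At day 6 the 4 basement membrane collagens compared had ratios above 0 that did not reach 2-fold. They were 0.99 (0.93 to 1.05) for Col4a2, 0.96 (0.83 to 1.09) for Col4a5, 0.88 (0.83 to 0.92) for Col18a1 and 0.73 (0.68 to 0.78) for Col4a1. The median was 0.92, while that of all genes was −0.05. None was counted as different by the 2-fold rule on library totals. With TMM scaling Col4a2 and Col4a5 passed it, at 1.05 and 1.02. Col4a1 and Col4a2 lie on chromosome 8, whose median was −0.25, and relative to it their ratios were 0.98 and 1.23.

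Epithelium-like cells were a larger share of cells in cKO. They made up 206 of 1546 parental cells (13.3%) with 20.5% of all UMIs, and 676 of 1650 cKO cells (41.0%) with 67.2% of all UMIs. They held 42.6% (41.9 to 43.4) of basement membrane collagen UMIs in parental and 81.0% (80.5 to 81.4) in cKO. The 11 epithelial markers summed to 2127 CPM in parental with 8 above 5 CPM and to 5870 CPM in cKO with 10 above 5 CPM, and none was at 0. Within epithelium-like cells Col4a1 measured 148 and 145 CPM in parental and cKO, a ratio of −0.03 (−0.10 to 0.04). Col18a1 measured 219.9 and 222 CPM, a ratio of 0.01 (−0.05 to 0.07). Both intervals include 0 and lie between −0.10 and 0.07. Col4a2 had a ratio of 0.15 (0.07 to 0.23) in the same cells. Without all epithelium-like cells the ratios stayed above 0 and under 2-fold. They were 0.48 (0.39 to 0.57) for Col4a1, 0.54 (0.42 to 0.65) for Col4a2, 0.63 (0.55 to 0.70) for Col18a1 and 0.29 (0.09 to 0.50) for Col4a5. Low-depth cells stayed unnamed, at a median of 4814 UMIs in a cluster of 199 parental and 132 cKO cells and of 4617 UMIs in one of 120 and 473 cells, the latter with 0.886% and 4.83% of all UMIs. Col4a1 was lower in cKO in the cluster led by Cxcl14, at 220.4 and 169 CPM, and closer in that led by Tmem54, at 123 and 118 CPM.

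Col4a5 differed within classes too. It measured 12.9 and 25.8 CPM in epithelium-like cells, a ratio of 1.0 (0.78 to 1.23), and 7.43 and 17.3 CPM in somite-like cells, a ratio of 1.22 (0.86 to 1.59). In somite-like cells Col18a1 measured 85.1 and 137 CPM, a ratio of 0.68 (0.57 to 0.80), and Col4a1 84.7 and 91.4 CPM, a ratio of 0.11 (−0.01 to 0.23). Of all members compared in epithelium-like cells, 2 of 14 were higher in cKO, Col11a1 and Col4a5, and 1 was lower, Col1a1, where 3.44% of all genes were different, 1.60% higher and 1.83% lower. In somite-like cells 3 of 19 were higher and 2 lower, where 4.72% of all genes were different, 2.75% higher and 1.97% lower. The higher genes there were Col4a5, Lama5 and Col4a6, and the lower ones Col1a1 and Col23a1, of which Col4a6 and Col23a1 were singled out after their values were seen.

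**Figure D4:**
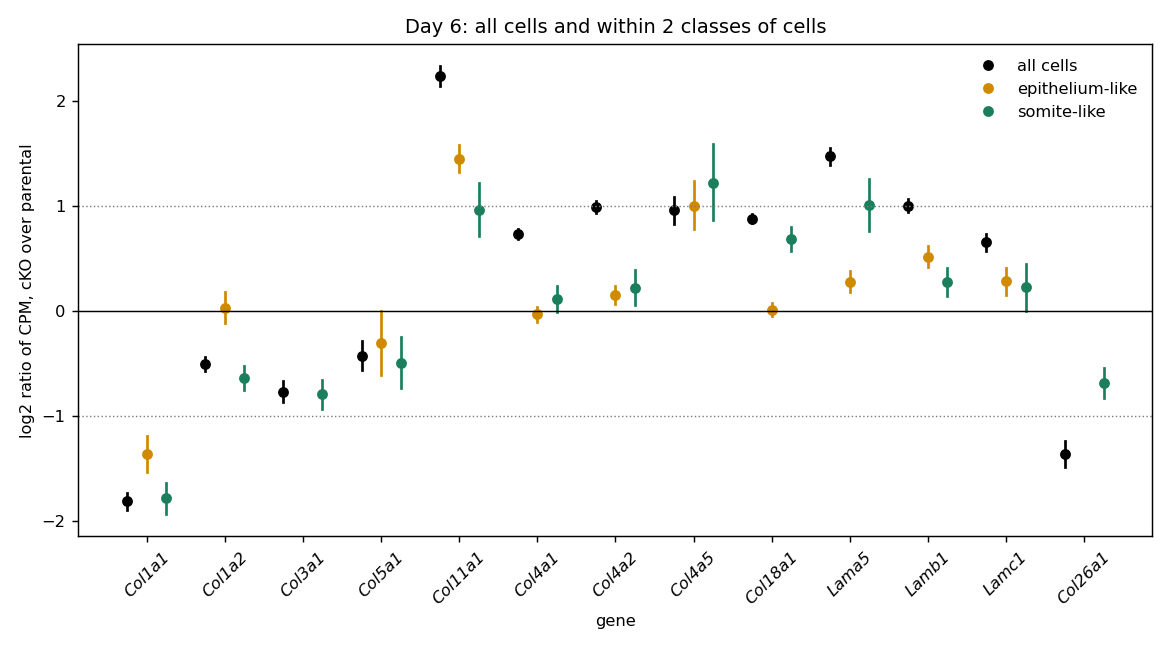
Log2 ratio of CPM of cKO over parental at day 6 for 13 members, over all cells, within epithelium-like cells and within somite-like cells. Bars are exact 95% intervals of counting error, dotted lines mark 2-fold, and points with under 5 CPM in both libraries are left out; Col1a1 lies below −1 in all 3 readings, while Col4a1 and Col18a1 lie at 0 in epithelium-like cells.

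The laminin chains differed in make-up between stages. Lamc1, the γ1 chain of most laminins (ENSMUSG00000026478, chr1:153218922-153332786, minus strand), measured 53.4 CPM in parental ESC and 59.7 CPM in cKO ESC, 20.7 and 18.1 CPM at day 3, and 29.5 and 46.3 CPM at day 6. Lamb1, the β1 chain that joins it (ENSMUSG00000002900, chr12:31265234-31329644, plus strand), measured 17.7 CPM in parental ESC and 10.1 CPM in cKO ESC, 30.6 and 26.2 CPM at day 3, and 46.8 and 93.5 CPM at day 6. Lama5, the α5 chain common in embryonic and adult epithelial basement membranes (ENSMUSG00000015647, chr2:180176373-180225859, minus strand), measured 39.1 CPM in parental ESC and 57.8 CPM in cKO ESC, 29.5 and 31.1 CPM at day 3, and 24.6 and 68.2 CPM at day 6. Lamc1 was highest in the ESC libraries, Lamb1 in cKO at day 6.

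Lamb1 UMIs per Lamc1 UMI were 0.331 (0.311 to 0.352) in parental and 0.170 (0.152 to 0.189) in cKO ESC. They were 1.48 (1.39 to 1.58) and 1.45 (1.35 to 1.55) at day 3, and 1.59 (1.5 to 1.68) and 2.02 (1.94 to 2.11) at day 6. The γ1 tags were thus in excess of the β1 tags in ESC and fewer in the 4 differentiated libraries. From ESC to day 3 Lamc1 had a ratio of −1.37 (−1.45 to −1.29) in parental and −1.72 (−1.81 to −1.62) in cKO. Lamb1 had 0.79 (0.69 to 0.89) and 1.37 (1.22 to 1.53). Lamb1 thus had a ratio opposite in sign to that of Lamc1 in both genotypes. Over all families, 11 of 16 parental members compared between ESC and day 3 were lower at day 3 and 0 higher, where 18.3% of all genes were different, 10.7% lower and 7.56% higher. In cKO 5 of 9 were lower and 1 higher, where 21.9% of all genes were different, 13.1% lower and 8.73% higher. Of the 11 lower members in parental, 4 were laminins.

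In ESC, Lama5 had a ratio of 0.56 (0.48 to 0.64), Lamc1 of 0.16 (0.09 to 0.23) and Lamb1 of −0.80 (−0.97 to −0.64). The epithelium-like ESC cluster, led by Krt18, H19 and Krt8, held 82 parental cells (5.87%) and 116 cKO cells (21.9%). Within it Lama5 levels were 76.4 and 106 CPM in parental and cKO, a ratio of 0.47 (0.29 to 0.65). None of 11 members compared in that cluster differed by 2-fold, where 4.29% of all genes were different, 2.64% higher and 1.66% lower. The 11 epithelial markers summed to 491 CPM in parental and 644 CPM in cKO ESC.

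At day 6, 2 of 6 laminins compared were higher in cKO and 0 lower, with a median ratio of 0.82, where 5.63% of all genes were higher and 6.76% lower. Lama5 had a ratio of 1.47 (1.39 to 1.55). Lamb1 came to 1.0 (0.94 to 1.06), just short of 2-fold, and Lamc1 to 0.65 (0.57 to 0.73). Within epithelium-like cells Lama5 levels were 71.9 and 87.1 CPM in parental and cKO, a ratio of 0.28 (0.18 to 0.38), and Lamb1 72.1 and 103 CPM, a ratio of 0.51 (0.42 to 0.61). Both ratios were smaller than those over all cells. In somite-like cells Lama5 measured 16.5 and 33.1 CPM, a ratio of 1.01 (0.76 to 1.26). Without any epithelium-like cells 2 members were higher, Lama5 at 1.25 and Col11a1 at 1.2, and 1 was lower, Col1a1, of 17 compared, where 7.98% of all genes were different, 3.47% higher and 4.51% lower. Lamb1 without those cells came to 0.88 (0.79 to 0.97). The epithelium-like cells held 39.1% of laminin UMIs in parental and 79.3% in cKO.

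Other laminin chains were lower in level. Lama3, Lamb2 and Lama1, which reached 5 CPM in some library and were picked here after their values were seen, differed by less than 2-fold between genotypes wherever they were compared. Lama3 measured 6.89 and 7.53 CPM in parental and cKO ESC and at most 1.06 CPM later. Lama1, the α1 chain of the earliest embryonic basement membranes, measured 7.42 and 4.5 CPM at day 6, and without epithelium-like cells 9.06 and 13.0 CPM, so its direction turned. There were 4 chains that stayed below 5 CPM, with 4.00 CPM as the highest value.

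Of the 25 other collagens 4 passed 5 CPM. Col12a1, which coats fibrils, measured 12.7 CPM in parental ESC and 0.462 CPM in cKO ESC, 0.296 and 0.0357 CPM at day 3, and 3.09 and 4.47 CPM at day 6. Col8a1, a short-chain collagen of vessel walls, measured 10.8 CPM in parental ESC and 0.411 CPM in cKO ESC, 0.501 and 0.297 CPM at day 3, and 4.33 and 4.00 CPM at day 6. Both were highest in parental ESC, with ESC ratios of −4.78 (−5.54 to −4.11) and −4.72 (−5.53 to −4.01). Col10a1, the collagen of hypertrophic cartilage, measured 6.74 CPM in parental ESC and had no UMI in cKO ESC, which makes it at least 87.5-fold lower against a floor of 3 counts in the library. The fibroblast-like parental cells held 80.8% of the UMIs of the 25 other collagens. Without them Col12a1, Col8a1 and Col10a1 measured 0.264, 0.0971 and 0.194 CPM in parental ESC, and none was compared.

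Col26a1 (ENSMUSG00000004415, chr5:136741759-136883209, minus strand) belonged to day 6. It measured 0.886 CPM in parental ESC and 1.52 CPM in cKO ESC, 0.514 and 0.262 CPM at day 3, and 27.0 and 10.5 CPM at day 6, with a day 6 ratio of −1.36 (−1.49 to −1.24). Among day 6 clusters with at least 100 cells it was highest in somite-like cells, at 89.5 and 55.5 CPM in parental and cKO, a ratio of −0.69 (−0.83 to −0.55). Without epithelium-like cells, where it was near absent in both genotypes, its levels were 33.6 and 31.2 CPM, a ratio of −0.11 (−0.23 to 0.02). Its lower call at day 6 thus ended in that alternative. Col2a1 likewise came to 18.1 and 10.9 CPM and −0.73 (−0.94 to −0.53).

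**Figure D5:**
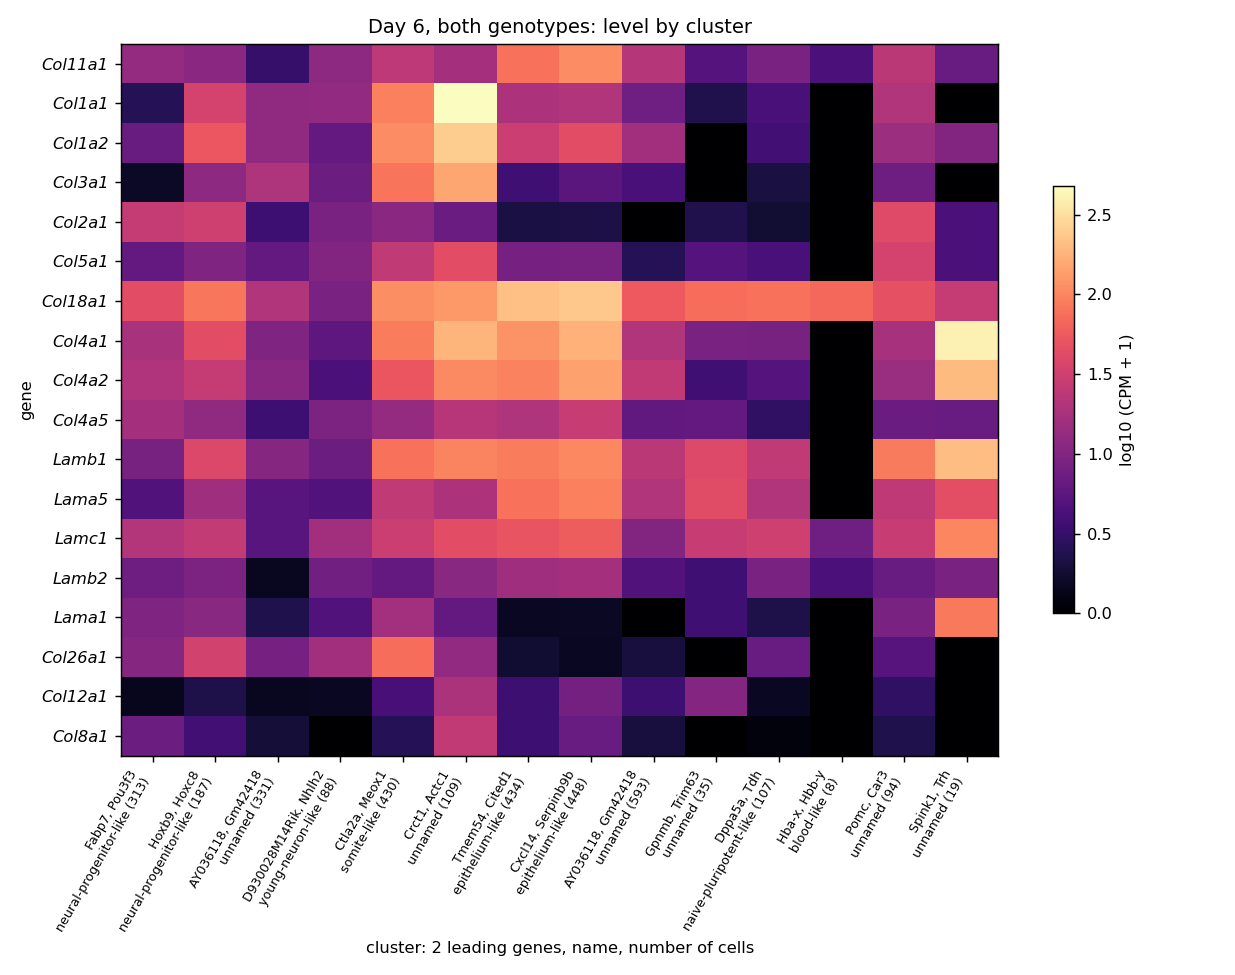
Level (colour, log10 of CPM plus 1) of 18 members in the 14 day 6 clusters, both genotypes together. Columns are labelled by leading genes, the name where markers allowed one, and the number of cells; type I chains and Col3a1 are highest in the cluster led by Crct1 and Actc1, Col4a1, Col4a2, Lamb1, Lamc1 and Lama1 in that led by Spink1 and Trh, and Col18a1 in the epithelium-like clusters.

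Summed levels of the families differed between classes of day 6 cells. In parental cells the fibrillar family summed to 635 CPM in the unnamed cells, 437 CPM in somite-like cells, 126 CPM in epithelium-like cells and 113 CPM in neural-progenitor-like cells. The basement membrane collagens summed to 303 CPM in the unnamed cells and to 226, 491 and 135 CPM in the 3 named classes, and the laminins to 147 CPM in the unnamed cells and to 133, 242 and 73.4 CPM. In cKO the somite-like and epithelium-like cells had 258 and 171 CPM of fibrillar, 306 and 515 CPM of basement membrane and 177 and 292 CPM of laminin transcripts. The unnamed cKO cells had 186, 185 and 133 CPM of the same families. Unnamed cells numbered 441 in parental and 740 in cKO and joined several clusters, among them low-depth ones and that led by Crct1. The small cluster led by Spink1, Trh and Srgn, with Sox17 among its leading genes and 6 parental and 13 cKO cells, had Col4a1 at 547 and 322 CPM. In these cells Lama1 measured 118 and 62.6 CPM, Lamb1 191 and 217 CPM and Lamc1 133 and 81.0 CPM. The chains of the early embryonic laminin were thus high together in these cells. With 1 library per genotype, a cluster filled mostly by 1 library may reflect that library.

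Shares of cells with a UMI of Col4a1 or Col1a1 gave the same order of genotypes as the levels. Each cell was thinned to 3000 UMIs, which left 1448 parental and 1495 cKO cells at day 6. Col4a1 was then detected in 11.7% (10.1 to 13.5) of parental and 19.2% (17.2 to 21.3) of cKO cells, and without thinning in 39.7% and 51.3%. Col1a1 was detected in 9.74% (8.26 to 11.4) and 4.08% (3.14 to 5.21), and without thinning in 26.5% and 17.1%. As a comparison, 2 of 94 thinned parental naive-pluripotent-like cells had a UMI of Col1a1 and 2 of Col4a1 (2.13% each). In parental day 6 cells that class held 80.4 CPM of basement membrane collagens, so it is no background for Col4a1. Within epithelium-like cells Col4a1 was detected in 32.7% (26.3 to 39.6) and 31.7% (28.2 to 35.3) and Col11a1 in 7.32% (4.15 to 11.8) and 24.0% (20.8 to 27.4). The first pair of intervals overlapped and the second did not.

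Other genes of collagen and laminin biology were read from 4 lists. Of the genes of collagen synthesis and crosslinking, 22 of 31 were compared in ESC, 5 were lower in cKO and 0 higher, where 2.66% of all genes were lower and 1.40% higher. Lox, which crosslinks collagen and elastin, went from 20.7 to 0.128 CPM in parental and cKO, Loxl3, of the same enzyme family, from 6.34 to 0.95 CPM and P3h3, a prolyl hydroxylase family member, from 7.16 to 2.11 CPM. Lox is also on the fibroblast marker list. Without fibroblast-like cells 17 genes of this list were compared and 0 were different, where 2.38% of all genes were. At day 3 none of 18 was different, where 0.852% of all genes were. At day 6 Loxl2, from 65.4 to 28.6 CPM, was the single lower gene of 21 compared, where 6.76% of all genes were lower.

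Of 16 basement membrane partners 10 were compared in ESC, where 4.05% of all genes were different. The single different gene was Smoc2, a calcium-binding matrix protein, from 17.2 to 1.46 CPM. None of 8 was different at day 3, where 0.852% of all genes were. Without fibroblast-like cells 1 of 9 was higher in ESC and 0 lower, where 1.68% of all genes were higher and 0.701% lower. At day 6, 5 of 12 were higher and 3 lower, where 5.63% of all genes were higher and 6.76% lower. Npnt, nephronectin, an integrin ligand of epithelial basement membranes, went from 6.54 to 35.1 CPM, and Frem2, of the complex that anchors epidermis to dermis, from 8.14 to 31.3 CPM. Ntn1, netrin, a guidance cue related to laminins, went from 20.3 to 5.78 CPM. Higher partners also included Hspg2 (perlecan), Agrn (agrin) and Fras1, and the lower ones Nid1 and Smoc1.

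Of 16 collagen and laminin receptors, Cd44, also a hyaluronan receptor, was the single lower gene of 9 compared in ESC, from 12.9 to 1.70 CPM, and 0 were higher. None of 8 was different at day 3, nor of 8 compared in ESC without fibroblast-like cells. Over all genes 2.66% were lower in ESC, 0.852% differed at day 3 and 5.63% were higher and 6.76% lower at day 6, the shares against which the receptor and protease counts are read. At day 6, 2 of 8 were higher and 0 lower: Bcam, a receptor for laminin α5, went from 49.3 to 179 CPM and Sdc4, a syndecan, from 31.2 to 68.8 CPM. Of 20 matrix proteases and inhibitors, 4 of 9 were lower in ESC, where Timp3 went from 50.1 to 2.72 CPM and Timp2 from 171 to 10.1 CPM, both inhibitors. Without fibroblast-like cells 0 of 5 were different. At day 3 Plat, a plasminogen activator, was the single different gene of 7, from 5.73 to 0.998 CPM. At day 6, 2 of 13 were higher and 1 lower: Adamts4, a proteoglycan-cleaving protease, went from 2.54 to 6.74 CPM, Mmp14, a membrane-bound collagenase, from 28.2 to 59.2 CPM and Plat from 22.9 to 10.3 CPM.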

How the data were processed

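Single-cell RNA was measured in 6 libraries, 1 per group of genotype and stage. The authors deposited whole-number UMI counts for each gene and barcode, made with Cell Ranger 3.1.0 per the file headers, on mm10 per the submitters' processing notes; reads assigned to no gene are not in them. A barcode was kept if it had 1000 genes or more and no more than 10% of its UMIs from mitochondrial genes. Doublets were not removed: Scrublet marked 30 of 7096 barcodes, too few to count as a working filter, and leaving them out was an alternative. Counts were summed per library, or per library and cluster, and scaled to CPM. A zero was set to 3 counts in a ratio, which is then a bound. Parental and cKO cells of the same stage were clustered jointly (scanpy 1.11.5, 2000 variable genes, 30 principal components, 15 neighbours, Leiden resolution 0.8, igraph 0.11.9), with no batch correction and without collagens, laminins and the other matrix lists. A cluster was named only by its markers. TMM factors came from edgeR 4.0.16, used as an alternative scaling. Computations were run in Python 3.11.15 with scipy 1.17.1 and R 4.3.3 and checked on simulated data.

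Members with at least 20 CPM in a library, or different between genotypes by the 2-fold rule, are named with values, and from each list of other genes up to 3 per stage with the largest ratios. Results for some genes that this rule would name are not reported here. Other names are said to be chosen after their values were seen. The members and lists were chosen with earlier results of these data known. All 55 members matched the GENCODE annotation by Ensembl identifier, as did 31011 of 31053 genes, and 40 of 55 had a RefSeq promoter window.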

Additional observations from a re-analysis of the deposited data

How the results depend on the processing

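No paired analysis was possible because each group held 1 library. Which members counted as different depended most on the CPM minimum and on cell composition. In ESC 8 members differed between genotypes, where 4.05% of all genes did. The count was 4 at 20 CPM or more, 20 with no minimum, and 2 without fibroblast-like cells, where 2.38% of all genes differed. It was 3 with a stricter barcode filter (2000 genes, 5% mitochondrial UMIs), which kept 457 parental and 86 cKO barcodes. With that filter 66.7% of the different members were higher in cKO, against 12.5% before. Over all genes these shares were 65.9% and 34.5%. Counts given without a share of all genes are of members alone. At day 3 the count went from 0 to 11 with no minimum. At day 6 it went from 6, where 12.4% of all genes differed, to 19 with no minimum. Without epithelium-like cells it was 3, where 7.98% of all genes differed. From ESC to day 3 the parental count of 11 became 4 at 20 CPM, 30 with no minimum, 6 with the stricter barcode filter and 5 without fibroblast-like cells, and the cKO count of 6 became 3 at 20 CPM and 25 with no minimum. From day 3 to day 6 the parental count of 13 became 6 at 20 CPM and 35 with no minimum, and the cKO count of 15 became 36 with no minimum. Without fibroblast-like cells 4 ratios that had passed 2-fold turned, all between levels under 2 CPM: Col5a1 to 0.13 between genotypes in ESC and to 0.54 from parental ESC to day 3, Col1a2 to 0.80 in the latter, and Col1a1 to 0.38 from cKO ESC to day 3. Ratios that had not passed it also turned between genotypes in ESC, among them Col4a1 from −0.21 to 1.01, Col4a2 from −0.79 to 1.04 and Lamb2 from −0.13 to 0.47. The difference in share of cells with Col4a1 at day 6 was 7.46 percentage points at 3000 UMIs per cell and 3.56 at 1500, a change that follows from thinner sampling. TMM moved the median of all genes by 0.11 between genotypes at day 3 and by −0.24 and −0.29 from day 3 to day 6. At day 6 TMM and median-of-ratios factors added Col4a5, Col4a2 and Lamb1 to the higher members, at 1.02, 1.05 and 1.06 with TMM. Leaving out epithelium-like cells, or fibroblast-like cells in comparisons other than the ESC genotypes and the parental step to day 3, was chosen after seeing the data. Without barcodes marked by Scrublet each member compared kept its call in all 7 comparisons, and with TMM 1 of 15 cKO calls from day 3 to day 6 was lost. At Leiden resolution 1.2 the fibroblast-like parental ESC cells again numbered 124. Depth limits members under 5 CPM: in the library of lowest depth 3 counts are 0.0770 CPM.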
